A study of Mus musculus with 14 samples.

Results

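Fibroblast growth factors (FGFs) and their receptors were examined in hind limb skeletal muscle of mice with and without the muscle transcription factor Myf6. The 9 genes described here were taken by symbol from the deposited tables of 49585 genes: the ligands Fgf1, Fgf2, Fgf6, Fgf7 and Fgf21, the receptors Fgfr1, Fgfr4 and Fgfrl1, and the carrier Fgfbp1. All 9 were found in both tables, and 8 of them, all but Fgf21, were abundant enough to be tested. The RNA-seq compared wild-type (WT) mice with Myf6 knockout (KO) mice, each without injury or with injury, in 4 groups of 3 libraries. Per the labels the tissue was hind limb skeletal muscle in every group, and the only genetic difference named is the loss of Myf6. The KO allele, strain, age, and how and when the muscle was injured are not given in the sources used here. Each library carries an animal number and the letter L (uninjured) or R (injured), and the same 3 numbers recur in both states of a genotype, and a number is taken here to stand for 1 animal. No number is shared by WT and KO, so genotype cannot be told apart from litter or batch. A ChIP-seq peak list came from primary myotubes grown from adult satellite cells and precipitated with a Flag antibody, with 1 ChIP and 1 control library.

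FGFs are secreted proteins that bind heparan sulfate on the cell surface together with a receptor tyrosine kinase, which then signals through adaptor proteins, Ras and the ERK kinases. In muscle, FGF signalling through Fgfr1 and Fgfr4 is known for its action on satellite cells, the muscle stem cells, and on myoblasts, where Fgf2 promotes proliferation. Fgf6 is the ligand best known for expression in skeletal muscle, Fgf21 is a circulating metabolic hormone that muscle can secrete under stress, and Fgfrl1 is a receptor that lacks the kinase domain. Myf6, also called MRF4, is a basic helix-loop-helix factor of the myogenic family, and such factors bind E-boxes, short sites with the letters CANNTG. In bulk tissue fewer cells of a type and less RNA per cell cannot be told apart, which holds for every level given here.

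The promoter sequences of 4 of the genes are shown because the E-box is the site that a factor such as Myf6 binds, and these genes span the cases met in the data. Fgfr4 and Fgfbp1 are a receptor and a carrier whose KO and WT levels did not overlap in 1 of the injury states. Fgf21 had the ChIP peak of highest fold enrichment near any of the 9, and Fgf6 had no peak nearby. Each sequence is the stretch before the gene's start, from RefSeq, assembly GRCm38.p6, on the gene's own strand, 5′ to 3′, with every CANNTG in capitals.
Fgfr4: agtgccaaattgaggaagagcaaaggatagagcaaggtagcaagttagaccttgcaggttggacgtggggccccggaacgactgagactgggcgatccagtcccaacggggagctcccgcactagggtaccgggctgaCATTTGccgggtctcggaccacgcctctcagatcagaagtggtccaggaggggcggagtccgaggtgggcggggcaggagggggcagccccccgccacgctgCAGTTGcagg
Fgfbp1: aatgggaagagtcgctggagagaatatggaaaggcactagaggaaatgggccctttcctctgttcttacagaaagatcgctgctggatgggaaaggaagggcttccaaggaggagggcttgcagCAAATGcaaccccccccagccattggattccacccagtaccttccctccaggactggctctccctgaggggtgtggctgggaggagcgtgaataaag
Fgf21: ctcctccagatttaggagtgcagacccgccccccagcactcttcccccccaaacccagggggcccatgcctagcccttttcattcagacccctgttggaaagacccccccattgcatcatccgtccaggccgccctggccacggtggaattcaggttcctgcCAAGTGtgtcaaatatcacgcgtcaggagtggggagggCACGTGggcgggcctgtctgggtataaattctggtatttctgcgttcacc
Fgf6: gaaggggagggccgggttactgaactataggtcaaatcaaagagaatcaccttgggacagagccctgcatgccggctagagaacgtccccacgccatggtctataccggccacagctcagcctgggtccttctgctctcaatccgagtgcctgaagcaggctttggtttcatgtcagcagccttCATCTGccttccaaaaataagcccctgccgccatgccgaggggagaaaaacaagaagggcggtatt
The Fgfr4 stretch (chr13:55152568-55152817, plus strand) held CATTTG and CAGTTG. The Fgfbp1 stretch (chr5:43981829-43982049, minus strand) held CAAATG, which is CATTTG read on the other strand. Only 221 of its 250 bases are printed, those outside the gene span, and the rest held a further CANNTG. Upstream of Fgf21 (chr7:45615491-45615740, minus strand) stood CAAGTG and CACGTG, and upstream of Fgf6 (chr6:127015292-127015541, plus strand) stood CATCTG. RefSeq promoter windows were matched for 7 of the 9 genes, and Fgf1 and Fgfr1 had no entry. CANNTG is its own reverse complement in pattern, so a search of one strand covers both. It was found in the 250 bases before the start in 6 of the 7 genes, Fgf2 being the exception, and in 66.0% of 27025 promoters of the same length. CAGCTG, found in 12.8% of all promoters, and CACCTG with its reverse complement CAGGTG, found in 17.1%, occurred in none of the 7 windows. A match is a description of the letters and not a measured binding site.

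Recovered depth ranged from 1880087 reads in uninjured WT replicate 2 to 49392472 reads, so that 3 reads, taken as the floor of detection, corresponded to 0.0607 to 1.60 reads per 1000000 (RPM). These floors cover counting error only. Myf6 was at 25.0 to 111 RPM in uninjured WT and 1.86 to 3.46 RPM in uninjured KO (KO minus WT as log2, -3.90, SE 0.51, limma adjusted p 0.0215). Injured WT libraries held 47.9 to 121 RPM and injured KO libraries 2.88 to 3.32 RPM (-4.22, SE 0.33, limma adjusted p 0.00697). All 10 myofibre markers were present in every group and summed to 129906 to 202178 RPM per library. Injured KO replicate 2 stood apart: across 13337 genes its mean correlation with the other 2 libraries of its group was 0.905, against 0.991 between those 2. Its 5 Schwann cell markers summed to 1134 RPM, against 82.2 to 636 RPM in the other 11 libraries, and its 6 endothelial markers to 486 RPM, against 177 to 291 RPM. Reads on mitochondrial genes made up 23.2% of it, the highest share of the 12, but uninjured WT replicate 2 held 22.3%. Uninjured KO replicate 2, the same numbered animal, also differed from its group, with a mean correlation of 0.916 against 0.961 between the other 2. Its mitochondrial share was 15.3%, against 6.76% and 3.63% in those 2. Results of the 8 tested genes in injured KO muscle are given with and without injured KO replicate 2. The part of the Schwann cell and endothelial markers in them was not tested.

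The comparison of KO with WT asked which genes of the FGF system differ in level between muscle with and without Myf6. None of the 8 genes tested passed an adjusted p of 0.05 in uninjured or in injured muscle when all 6 libraries of each state were used. Fgfr1, Fgfr4 and Fgfbp1 had lower mean levels in KO in both states, Fgfrl1 had higher mean levels, and Fgf1 was higher in every injured KO library than in any injured WT library. Fgf2, Fgf6 and Fgf7 overlapped between the genotypes in both states. Differences are KO minus WT on the log2(RPM + 1) scale, which understates the change of genes at low levels.

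**Figure D1:**
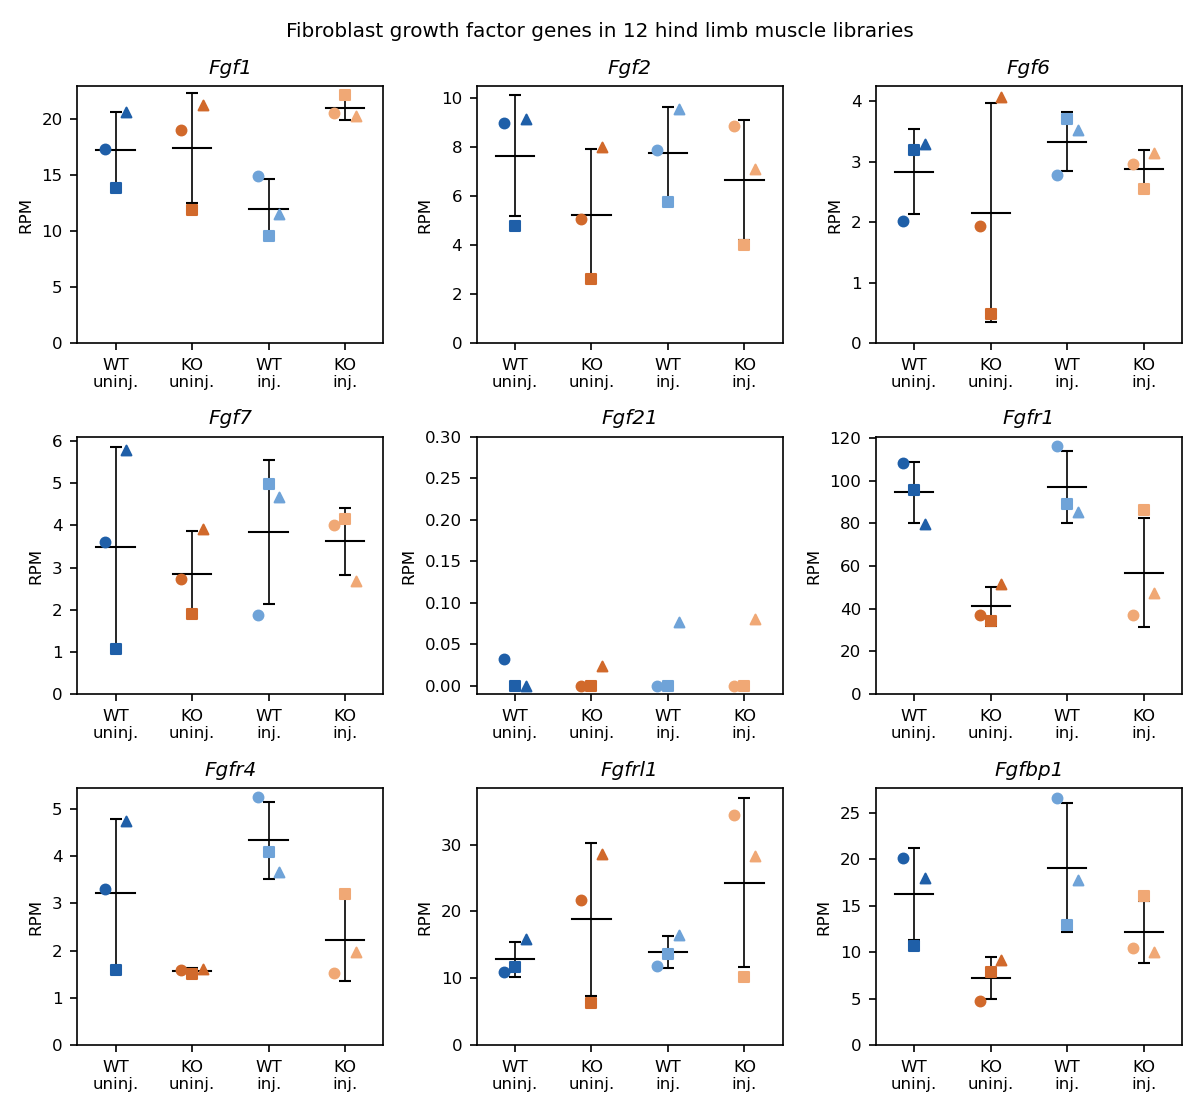
Level of the 9 genes in RPM (y axis, linear, a separate scale for each gene) in uninjured and injured (uninj., inj.) WT and KO muscle; circles, squares and triangles are replicates 1, 2 and 3, horizontal bars are group means and vertical bars are ± SD (n = 3), which are left out for Fgf21. Fgfr1 in the 3 uninjured KO libraries lay between 34.4 and 51.6 RPM, below the 79.8 to 108 RPM of uninjured WT, and injured KO replicate 2 (square) was the highest injured KO library at 86.1 RPM.

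Among the ligands, Fgf1 (ENSMUSG00000036585.15), which binds all FGF receptors and is released without a signal peptide, was at 17.3, 13.8 and 20.6 RPM in uninjured WT and at 19.0, 11.9 and 21.3 RPM in uninjured KO. These values overlapped, and the difference was -0.01 (SE 0.33, limma adjusted p 0.994). In injured WT Fgf1 was at 14.9, 9.51 and 11.5 RPM, and in injured KO at 20.5, 22.1 and 20.2 RPM. Every injured KO library was above every injured WT library, a separation in this direction seen in 8.29% of the 12625 genes tested. The difference of 0.78 (SE 0.20, interval 0.31 to 1.25) had an unadjusted p of 0.00593 and a limma adjusted p of 0.278. By group mean Fgf1 was highest in injured KO (20.9 ± 1.04 RPM, SD, n = 3), followed by uninjured KO (17.4 ± 4.89), uninjured WT (17.2 ± 3.38) and injured WT (11.9 ± 2.70), and each neighbour in that order overlapped the next. Without injured KO replicate 2 the injured difference was 0.74 and passed (limma adjusted p 0.0423), and with DESeq2 on all 6 libraries it was 0.82 (adjusted p 0.0177). Over 14 alternatives the difference stayed between 0.64 and 0.94, the adjusted p ran from 0.0177 to 0.916, and 2 of the 14 passed. In the authors' deposited table, which gives WT over KO, the injured value was -0.84 with a q-value of 0.128. Fgf1 overlaps Arhgap26, at 1.18 to 9.72 RPM in these libraries, and the library kit does not mark strand, so reads from the shared stretch could belong to either gene.

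Fgf2 (ENSMUSG00000037225.13), a mitogen of myoblasts, was at 8.98, 4.79 and 9.12 RPM in uninjured WT and at 5.06, 2.60 and 8.00 RPM in uninjured KO. Injured WT libraries held 7.88, 5.77 and 9.53 RPM, injured KO libraries 8.83, 3.98 and 7.09 RPM. Replicate 2 was the lowest of its group in all 4 groups. The genotypes overlapped in both states, with differences of -0.53 (SE 0.44, limma adjusted p 0.635) and -0.22 (SE 0.31, limma adjusted p 0.843). Without injured KO replicate 2 the injured value turned to 0.055 (SE 0.23, limma adjusted p 0.882). Group means ran from 7.72 ± 1.89 RPM (SD, n = 3) in injured WT through uninjured WT (7.63 ± 2.46) and injured KO (6.63 ± 2.46) to 5.22 ± 2.70 in uninjured KO, with overlap between all neighbours. Fgf2 shares its locus with Nudt6, at 0.532 to 5.43 RPM, on the opposite strand, so its values carry the same uncertainty as those of Fgf1.

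Fgf6 (ENSMUSG00000000183.6) was low in every library. It was at 2.03, 3.19 and 3.29 RPM in uninjured WT and at 1.94, 0.472 and 4.07 RPM in uninjured KO, where replicate 2 rested on 6 reads. With injury, WT libraries held 2.78, 3.71 and 3.52 RPM, KO libraries 2.97, 2.55 and 3.14 RPM. The spread was widest in uninjured KO (2.16 ± 1.81 RPM, SD, n = 3), which held both the lowest and the highest library. The genotypes overlapped in both states, with differences of -0.44 (SE 0.49, limma adjusted p 0.735) and -0.15 (SE 0.19, limma adjusted p 0.826). The injured value was -0.09 (limma adjusted p 0.771) without injured KO replicate 2. In order of mean, injured WT (3.33 ± 0.493 RPM), injured KO (2.88 ± 0.306), uninjured WT (2.84 ± 0.703) and uninjured KO overlapped each with the next.

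Fgf7 (ENSMUSG00000027208.14), also called keratinocyte growth factor and known as a product of connective tissue cells, was at 3.60, 1.06 and 5.80 RPM in uninjured WT and at 2.74, 1.89 and 3.90 RPM in uninjured KO. The lowest of these, uninjured WT replicate 2, rested on 2 reads. Its injured WT values were 1.88, 4.98 and 4.67 RPM, its injured KO values 4.01, 4.15 and 2.69 RPM. The differences of -0.10 (SE 0.49, limma adjusted p 0.955) and -0.01 (SE 0.33, limma adjusted p 0.996) were smaller than the spread within groups, where the SD was 0.805 to 2.37 RPM. Leaving out injured KO replicate 2 gave -0.10 (limma adjusted p 0.861) with injury. Means were ordered injured WT (3.84 RPM), injured KO (3.62), uninjured WT (3.49) and uninjured KO (2.84), and neighbours overlapped throughout.

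Fgf21 (ENSMUSG00000030827.5) was at or near 0 in all libraries. It was at 0 RPM in 8 of the 12, and at 0.0322 RPM in uninjured WT replicate 1, 0.0234 RPM in uninjured KO replicate 3, 0.0765 RPM in injured WT replicate 3 and 0.0810 RPM in injured KO replicate 3. Only the last of these reached the floor, with 4 reads, and the other 11 libraries held fewer than 3. Fgf21 was below the filter on low values and was not tested, and a difference between groups was not detectable at this depth.

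Fgfbp1 (ENSMUSG00000048373.8) is a secreted carrier that releases FGFs from heparan sulfate. It was at 20.1, 10.6 and 17.9 RPM in uninjured WT and at 4.72, 7.87 and 9.14 RPM in uninjured KO. No KO library reached the lowest WT library, as in 15.5% of the 12460 genes tested. That WT library, replicate 2, rested on 20 reads, and its 10.6 RPM was close to the highest KO library at 9.14 RPM. The difference was -1.06 (SE 0.38, interval -1.92 to -0.20), with an unadjusted p of 0.0209 and a limma adjusted p of 0.251. After injury, WT libraries held 26.6, 12.9 and 17.7 RPM, KO libraries 10.5, 16.0 and 9.98 RPM. Here the genotypes overlapped, because KO replicate 2 at 16.0 RPM exceeded WT replicate 2 at 12.9 RPM, and the difference was -0.58 (SE 0.30, limma adjusted p 0.564). It was -0.78 (SE 0.28, limma adjusted p 0.0847) without injured KO replicate 2. Means ran in the order injured WT (19.1 ± 6.94 RPM, SD, n = 3), uninjured WT (16.2 ± 4.95), injured KO (12.1 ± 3.34) and uninjured KO (7.24 ± 2.28). Only the last pair of neighbours, injured and uninjured KO, did not overlap.

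Among the receptors, Fgfr1 (ENSMUSG00000031565.18), a receptor tyrosine kinase, was at 108, 95.7 and 79.8 RPM in uninjured WT and at 37.3, 34.4 and 51.6 RPM in uninjured KO. The highest KO library, at 51.6 RPM, was below the lowest WT library, at 79.8 RPM, a separation in this direction seen in 15.5% of the 12460 genes tested. The difference was -1.19 (SE 0.27, interval -1.81 to -0.58), or 0.437 times the WT level on that scale. Its unadjusted p was 0.00175, its limma adjusted p 0.112. Fgfr1 passed in 3 of 14 alternatives: DESeq2 (-1.03, adjusted p 0.0161), limma with scaling to reads outside mitochondrial genes (-1.35, adjusted p 0.0404) and limma with the replicate number as a block (-1.19, adjusted p 0.0196). That block joins WT and KO libraries of different animals, which were not taken as pairs. Over all 14 the difference ran from -1.37 to -0.96 and the adjusted p from 0.0161 to 0.613. The authors' deposited table gives a log2 value of 1.02, WT over KO, with a q-value of 0.0908.

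Fgfr1 in injured WT was at 116, 89.0 and 85.5 RPM, in injured KO at 37.2, 86.1 and 47.6 RPM. KO replicate 2, the library that stood apart, was within the WT range and the other 2 KO libraries were below it. The difference was -0.83 (SE 0.32, unadjusted p 0.0355, limma adjusted p 0.445) with all libraries. Without KO replicate 2 it was -1.17 (SE 0.18, limma adjusted p 0.0112), close in size to the uninjured value. Over 14 alternatives the adjusted p ran from 0.0112 to 0.971. By mean, injured WT (96.9 ± 16.9 RPM, SD, n = 3) and uninjured WT (94.6 ± 14.3) overlapped, as did uninjured WT and injured KO (57.0 ± 25.8), and injured and uninjured KO (41.1 ± 9.23).

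Fgfr4 (ENSMUSG00000005320.9), a receptor tyrosine kinase of myogenic cells, was at 3.31, 1.60 and 4.74 RPM in uninjured WT and at 1.60, 1.4955 and 1.61 RPM in uninjured KO. The KO libraries were close to each other (SD 0.0640 RPM), and WT replicate 2, at 3 reads, was among them. The difference was -0.64 (SE 0.40, limma adjusted p 0.510). Injured WT held 5.25, 4.08 and 3.67 RPM of it, injured KO 1.53, 3.21 and 1.96 RPM. All injured KO libraries were below all injured WT libraries, as in 8.63% of genes tested, with a difference of -0.75 (SE 0.26, interval -1.35 to -0.14, unadjusted p 0.0226, limma adjusted p 0.404). Without KO replicate 2 it was -0.95 (SE 0.22, limma adjusted p 0.0272), the only 1 of 14 alternatives that passed, and the adjusted p ran from 0.0272 to 0.971. In order of mean, injured WT (4.34 ± 0.819 RPM, SD, n = 3), uninjured WT (3.22 ± 1.58), injured KO (2.23 ± 0.873) and uninjured KO (1.57 ± 0.0640) each overlapped the next.

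Fgfrl1 (ENSMUSG00000008090.14), the receptor without a kinase domain, varied between animals within KO. In uninjured WT it was at 10.9, 11.7 and 15.8 RPM and in uninjured KO at 21.6, 6.22 and 28.6 RPM. In injured WT it was at 11.8, 13.6 and 16.5 RPM and in injured KO at 34.5, 10.1 and 28.2 RPM. In each state KO replicates 1 and 3 were above all WT libraries and KO replicate 2, the same numbered animal, was below all of them. The differences were 0.31 (SE 0.51, limma adjusted p 0.829) and 0.61 (SE 0.43, limma adjusted p 0.667). Leaving out KO replicate 2 gave 0.93 (limma adjusted p 0.199) in uninjured muscle and 1.12 (SE 0.19, limma adjusted p 0.0125) in injured muscle. Over 14 alternatives each, the adjusted p ran from 0.199 to 0.974 and from 0.0125 to 0.999984. The uninjured value without KO replicate 3 was -0.09, so its sign rested on that library. By mean, injured KO (24.3 ± 12.6 RPM, SD, n = 3), uninjured KO (18.8 ± 11.5), injured WT (13.97 ± 2.40) and uninjured WT (12.8 ± 2.64) each overlapped the next.

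**Figure D2:**
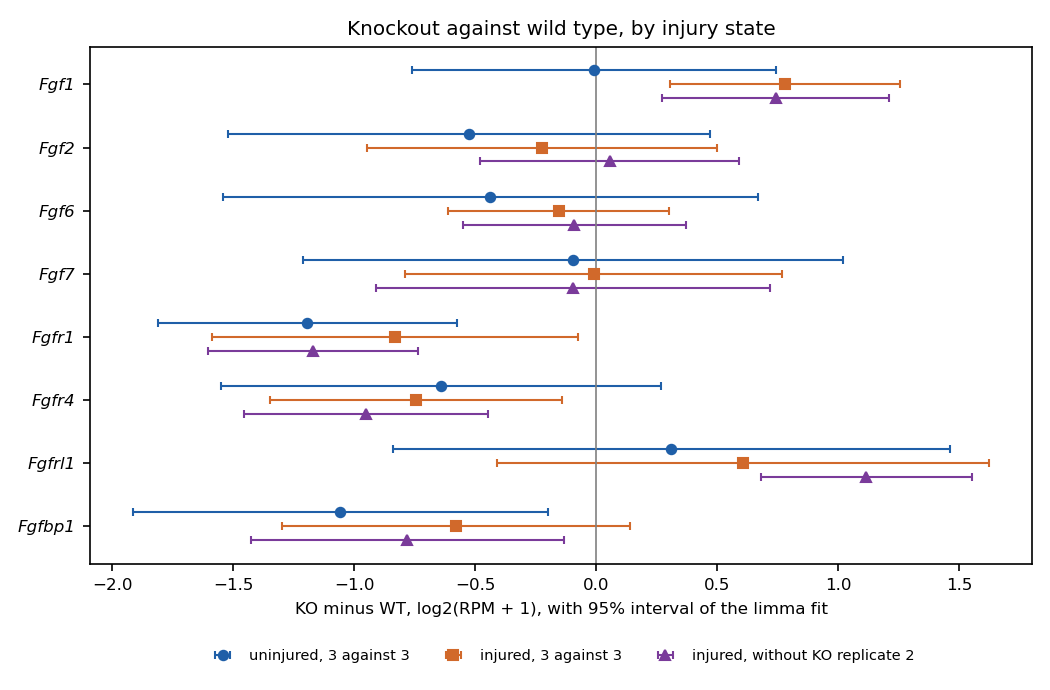
Difference between KO and WT (x axis, log2(RPM + 1)) of the 8 genes tested, with 95% intervals of the limma fit, in uninjured muscle (circles), injured muscle (squares) and injured muscle without KO replicate 2 (triangles). The Fgfr1 interval in uninjured muscle ran from -1.81 to -0.58, and the triangles of Fgfr1, Fgfr4, Fgf1 and Fgfrl1 are those that passed an adjusted p of 0.05.

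Counted over the 8 genes, 0 passed in uninjured muscle, beside 35 of 12460 genes (0.281%), and 0 in injured muscle, beside 34 of 12625 (0.269%). At an unadjusted p under 0.05, Fgfr1 and Fgfbp1 were lower in uninjured KO, beside 10.7% of all genes lower. In injured muscle Fgfr1 and Fgfr4 were lower, beside 5.26% of genes, and Fgf1 was higher, beside 5.06%. The estimate was below 0 for 7 of 8 genes in uninjured muscle, with a median of -0.48 beside -0.18 over all genes tested, and for 6 of 8 in injured muscle, with a median of -0.19 beside 0.01. None of the 8 was lower without overlap in both states, as 3.16% of genes were. DESeq2 called 1 of the 8 in each state, Fgfr1 in uninjured muscle beside 5.32% of genes and Fgf1 in injured muscle beside 3.38%. Without injured KO replicate 2, 4 of the 8 passed, beside 19% of all 12312 genes. Fgfr1 and Fgfr4 were lower, beside 9.54% of genes, and Fgf1 and Fgfrl1 were higher, beside 9.49%. Fgfr1 was also the 1 called in uninjured muscle with scaling outside mitochondrial genes, beside 1.6% of genes. The same held with the replicate block, which joins libraries of different animals, beside 6.04%.

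Levels of some cell type markers also lay apart between the genotypes. The 8 macrophage and neutrophil markers summed to 83.0 to 161 RPM in uninjured WT and 49.98 to 80.4 RPM in uninjured KO, without overlap. The lowest WT sum, 83.0 RPM, was that of replicate 2, the library of 1880087 reads. Of the macrophage and neutrophil markers 6 could be tested in uninjured muscle. Of the 6, 4 were lower at an unadjusted p under 0.05, beside 10.7% of all genes. The 10 myofibre markers summed to 135721 to 147902 RPM in uninjured WT and to 179906 to 202178 RPM in uninjured KO. The 6 adipocyte markers summed to 381 to 599 RPM and 561 to 1242 RPM. At an unadjusted p under 0.05, 4 of 6 were higher, beside 440 of 12460 genes. The 8 fibro-adipogenic progenitor and fibroblast markers had sums that overlapped, at 749 to 2015 RPM and 607 to 1278 RPM, but 7 of 8 estimates were lower in KO, 3 of them at an unadjusted p under 0.05, with a median of -0.70. The sums of the 8 satellite cell markers overlapped, at 107 to 134 RPM and 125 to 155 RPM. In injured muscle the macrophage and neutrophil sums were 104 to 146 RPM in WT and 89.7 to 94.4 RPM in KO, and the adipocyte sums overlapped, at 59.6 to 404 RPM and 280 to 1209 RPM. No marker was at 0 in all 3 libraries of a group, and no marker passed an adjusted p of 0.05 in either state with all 6 libraries. Without injured KO replicate 2, the fit in which 4 of the 8 FGF genes passed, 10 markers passed, beside 19% of all 12312 genes. They are given by list with the number tested. None of the 6 endothelial, 4 tenocyte, 5 Schwann cell, 5 smooth muscle and pericyte and 5 blood markers tested was among them. The adipocyte markers Adipoq, Cidec, Lep and Plin1 were higher in injured KO (4 of 6 markers, list median 2.46). The myofibre markers Ckm and Des were higher too (2 of 10, list median 0.54). Of the satellite cell markers only Myf5 passed, and it was higher (1 of 7), while the list median was -0.15. Dpt and Pdgfra, of fibro-adipogenic progenitors and fibroblasts (2 of 8), and Mrc1, of macrophages (1 of 6), were lower. The part of these cell types in the differences of Fgfr1, Fgfr4, Fgfbp1, Fgfrl1 and Fgf1 was not tested.

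Injured and uninjured muscle were compared within each numbered animal, from its 2 libraries, and by fits over all 12 libraries. The fits had no term for the animal, so their SE and p treat the 2 libraries of an animal as independent. With limma, DESeq2 or edgeR no gene passed in WT or in KO, and so none of the 8 (0% of 13337 called in each with limma), while in limma 1.29% and 3.51% of genes had an unadjusted p under 0.05. Fgf1 was lower in the injured muscle of all 3 WT animals, by differences of -0.79 to -0.21, and higher in 2 of 3 KO animals, at -0.07 to 0.84. The fitted values were -0.50 (SE 0.27, limma adjusted p 1) in WT and 0.29 (SE 0.27, limma adjusted p 0.743) in KO. Fgfbp1 was higher in the injured muscle of all 3 KO animals, at 0.11 to 1.004, and every injured KO library exceeded every uninjured one, as in 6.12% of genes. Its fitted value was 0.69 (SE 0.35, unadjusted p 0.0713, limma adjusted p 0.728). Fgf6 and Fgfrl1 were higher in the injured muscle of all 3 WT animals, at 0.07 to 0.32 and 0.06 to 0.20. Fgfr1 differed little by animal in WT, at -0.10 to 0.10. In KO its changes ran from -0.12 to 1.30, the highest in the animal of replicate 2. In KO all 8 estimates were above 0, with a median of 0.37, but so was the median of all genes, at 0.29. Macrophage and neutrophil markers summed to 104 to 146 RPM in injured WT, within the uninjured WT range. In KO they summed to 89.7 to 94.4 RPM with injury and 49.98 to 80.4 RPM without, with no overlap, and all 7 tested were estimated higher (median 0.41). Their part in the KO estimates was not tested. With injured KO replicate 2 left out, the KO injury values were 0.06 for Fgfr1, 0.09 for Fgfr4, 0.20 for Fgf7 and 0.25 for Fgf1. They were 0.49 for Fgfbp1, 0.53 for Fgf6, 0.62 for Fgf2 and 0.93 for Fgfrl1. The limma adjusted p of these 8 values was 0.665 to 0.939. This fit kept the uninjured library of the same animal, the lowest uninjured KO library for every tested gene but Fgfbp1. By animal, KO replicates 1 and 3 changed by 0.65 and -0.02 for Fgfrl1, 0.70 and -0.15 for Fgf2 and 0.43 and -0.29 for Fgf6.

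**Figure D3:**
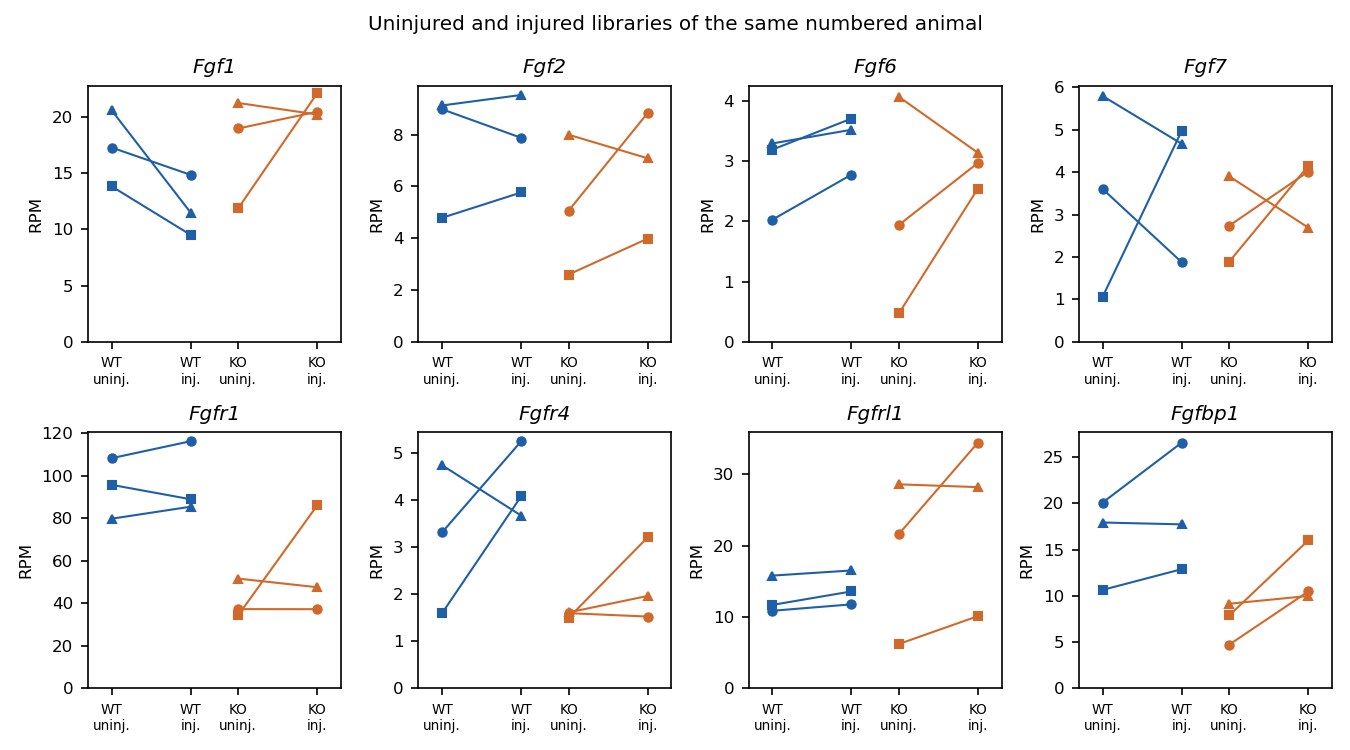
Level of 8 genes in RPM (y axis, linear, a separate scale for each gene) in the uninjured and injured library of each numbered animal, joined by a line, for WT (blue) and KO (orange); circles, squares and triangles are replicates 1, 2 and 3. Fgf1 was lower after injury in all 3 WT animals, and Fgfr1 in KO changed mainly in replicate 2, from 34.4 to 86.1 RPM.

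Whether the injury change differed between genotypes was tested with an interaction term over all 12 libraries, again without a term for the animal. With limma, DESeq2 or edgeR none of the 8 genes passed, beside 0 of 13337 genes (0%), of which 1.56% had an unadjusted p under 0.05. The largest of the 8 was Fgf1, where the KO change exceeded the WT change by 0.79 (SE 0.39, interval -0.05 to 1.63, unadjusted p 0.0622, limma adjusted p 0.999889). For Fgfbp1 it was 0.48 (SE 0.49) and for Fgfr1 0.36 (SE 0.42), each with an interval that included 0. Leaving out injured KO replicate 2, these values were 0.75 for Fgf1, 0.28 for Fgfbp1 and 0.02 for Fgfr1. The other 5 genes ran from -0.31 to 0.81, with limma adjusted p of 0.998831 to 0.999983 over the 8. This fit again kept the uninjured library of that animal, and the highest value was that of Fgfrl1. By animal, Fgfrl1 changed by 0.65 and -0.02 in KO replicates 1 and 3, and by 0.06 to 0.20 in WT.

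The other genes of the pathway were taken from 5 lists: 17 other ligands, 20 other receptors, co-receptors and binding proteins, 19 enzymes of heparan sulfate, 24 signal transducers and 19 feedback regulators and targets, of which 18 were in the tables. No gene of any list passed an adjusted p of 0.05 in any of the 5 comparisons. In uninjured muscle the counts at an unadjusted p under 0.05 were 0 of 4 ligands tested, 3 of 16 receptors and binding proteins, 2 of 15 enzymes, 1 of 24 transducers and 1 of 15 feedback genes, beside 14.2% of all genes. With injury they were 0 of 4, 7 of 15, 0 of 15, 4 of 24 and 2 of 15, beside 10.3% of all genes. List medians lay between -0.24 and -0.03 in uninjured muscle, beside -0.18 for all genes, and between 0.02 and 0.16 in injured muscle, beside 0.01.

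Of the other 17 ligands, 11 were under the filter over all 12 libraries, the highest of these values being 4.02 RPM, and 2 had no read in any library. Fgf13 and Fgf11, which act inside the cell, were at 2.36 to 25.0 RPM and 4.04 to 11.6 RPM. Fgf9 and Fgf10, both secreted, reached 4.54 and 2.89 RPM. Their differences of smallest p were -0.61 for Fgf13 (SE 0.67) and -0.44 for Fgf9 (SE 0.49) in uninjured muscle, and 0.36 for Fgf10 (SE 0.22) and -0.35 for Fgf11 (SE 0.34) in injured muscle, with limma adjusted p of 0.622 to 0.761.

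Among receptors and binding proteins, Fgfr1op had the smallest p of any pathway gene in uninjured muscle. It encodes a centrosomal protein named for a fusion with Fgfr1, not a receptor, and it was at 48.1, 49.5 and 37.3 RPM in WT and 13.2, 13.1 and 15.6 RPM in KO. The KO libraries were all lower, as in 15.5% of genes tested, and the difference was -1.61 (SE 0.28, limma adjusted p 0.0580). Agrn encodes agrin, a heparan sulfate proteoglycan of the neuromuscular junction, and it was at 34.6, 34.0 and 24.3 RPM in uninjured WT and 16.9, 15.3 and 9.82 RPM in uninjured KO (difference -1.11, SE 0.32, limma adjusted p 0.186). In injured KO replicate 2 Agrn stood at 59.8 RPM, against 9.45 and 11.8 RPM in the other 2. Fgfbp3, a carrier related to Fgfbp1, was at 3.44, 2.13 and 6.06 RPM in uninjured WT and 1.22, 1.02 and 1.24 RPM in uninjured KO, and at 2.33, 3.29 and 3.60 RPM in injured WT and 1.74, 0.885 and 1.13 RPM in injured KO. It was thus lower without overlap in both states, as 3.16% of genes were, with an injured difference of -0.86 (SE 0.24, limma adjusted p 0.313). Gpc3, a glypican, was at 8.78, 8.46 and 5.70 RPM in injured WT and 15.0, 25.1 and 14.1 RPM in injured KO (difference 1.11, SE 0.28, limma adjusted p 0.265).

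Of the enzymes that build or edit heparan sulfate, Hs3st5, a sulfotransferase, differed by -1.34 (SE 0.52, limma adjusted p 0.288) and Sulf1, which removes sulfate groups, by -0.88 (SE 0.39, limma adjusted p 0.346) in uninjured muscle. In injured muscle the smallest p values belonged to the glycosyltransferases Extl1 (0.45, SE 0.26) and Extl3 (0.34, SE 0.21), with limma adjusted p of 0.597 and 0.622. Among the transducers, Map2k2, a kinase that phosphorylates ERK, was higher in uninjured KO by 0.74 (SE 0.23, limma adjusted p 0.206), and Sos2, a Ras activator, differed by -0.88 (SE 0.47, limma adjusted p 0.430). The adaptors Gab2 and Frs2, which couple receptors to Ras, differed by 0.58 (SE 0.18) and -0.48 (SE 0.18) in injured muscle, with limma adjusted p of 0.356 and 0.430.

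Etv4, a transcription factor induced by FGF signalling, was the feedback gene of smallest p in both states. It was at 2.35, 1.60 and 2.01 RPM in uninjured WT and 4.79, 4.41 and 3.76 RPM in uninjured KO, and at 2.03, 1.95 and 1.49 RPM in injured WT and 4.10, 4.81 and 4.56 RPM in injured KO. All KO libraries were above all WT libraries in both states, as 2.13% of genes were. The differences were 0.84 (SE 0.34, limma adjusted p 0.314) and 0.96 (SE 0.19, limma adjusted p 0.164). Dusp6, an ERK phosphatase, differed by -0.67 (SE 0.38, limma adjusted p 0.465) in uninjured muscle, and Egr1, an immediate early transcription factor, by 1.09 (SE 0.37, limma adjusted p 0.401) in injured muscle.

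Without injured KO replicate 2, 0 of 4 ligands, 4 of 15 receptors and binding proteins, 2 of 15 enzymes, 5 of 24 transducers and 1 of 14 feedback genes passed in injured muscle, beside 19% of all genes. Agrn (-1.32) and Fgfr1op (-1.32) were lower, Gpc3 (0.86) and Sdc3 (0.65), a syndecan, were higher, and so were the enzymes Extl3 (0.53) and Hs6st1 (1.02). Among the transducers, the kinase Map2k1 (0.79), the adaptor Crkl (1.15) and the phosphatase Ptpn11 (1.09) were higher and Frs2 (-0.58) was lower. Etv4 was higher by 0.92. Each had a limma adjusted p of 0.00985 to 0.0494.

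**Figure D4:**
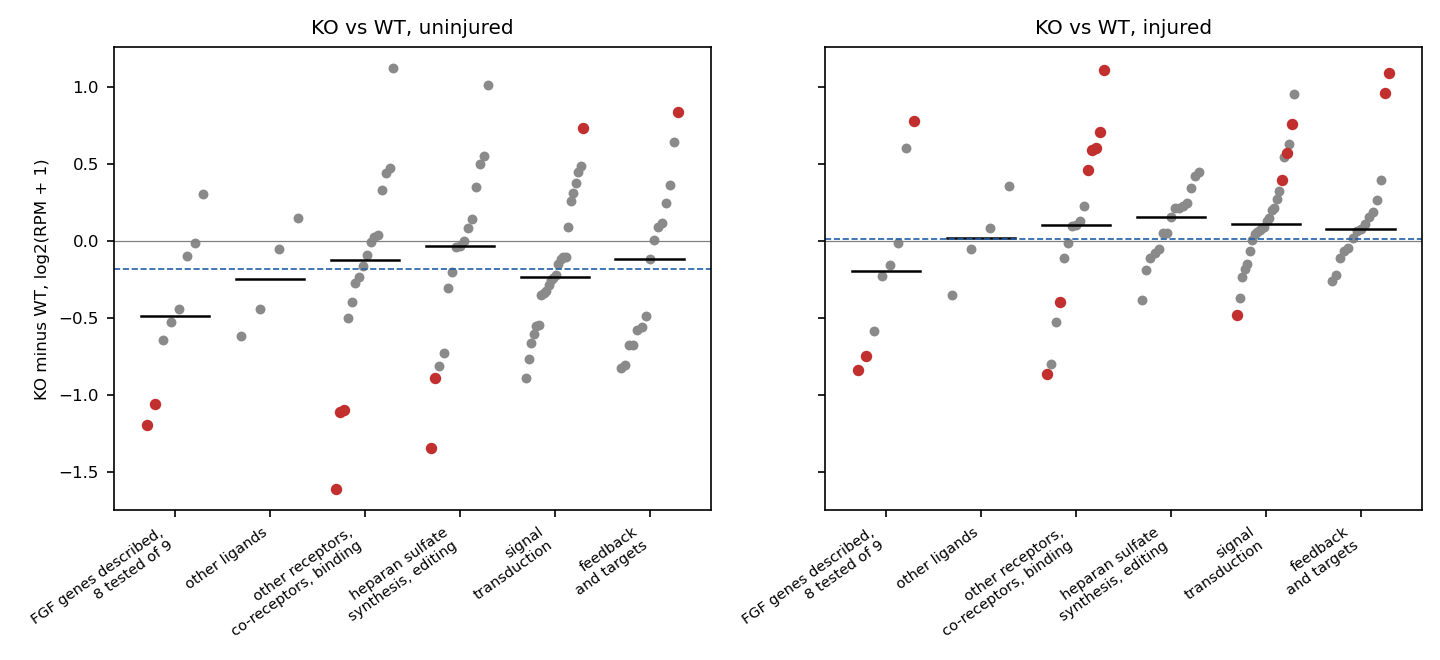
Difference between KO and WT (y axis, log2(RPM + 1)) of each gene tested in the 8 genes of this account and in 5 pathway lists, in uninjured (left) and injured (right) muscle; red points have an unadjusted p under 0.05, black bars are list medians and the dashed line is the median of all genes. The medians of the 5 pathway lists lie between -0.24 and -0.03 (left) and 0.02 and 0.16 (right), beside the dashed line at -0.18 and 0.01, while those of the 8 genes lie below it, at -0.48 and -0.19, and the lowest red point on the left is Fgfr1op at -1.61.

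The levels of Fgfr1, Fgfr4 and Fgfbp1 moved together across the 12 libraries. Pearson's r of log2(RPM + 1) was 0.83 between Fgfr1 and Fgfbp1, 0.85 between Fgfr4 and Fgfbp1 and 0.77 between Fgfr1 and Fgfr4, as a description over libraries that share genotype, animal and depth. Fgfrl1 ran the other way against these, at -0.40 with Fgfr1, -0.31 with Fgfr4 and -0.31 with Fgfbp1. Of 13336 other genes, those most like Fgfr1 were Ip6k2 (r 0.981), Wdr60 (0.980) and Exd2 (0.979). Fgfr4 was most like Srsf1 (0.964), Mir3064 (0.958) and Idua (0.954), and Fgfbp1 most like Tbc1d24 (0.963), Snx6 (0.959) and Ccp110 (0.946). For Fgfrl1 the genes were Gatad1 (0.984), Ifngr2 (0.975) and Idh2 (0.964). For the ligands they were Heph (0.956), Dhx38 (0.904) and Cdkn1a (0.902) with Fgf1, Fam98b (0.956), Pex13 (0.948) and Gtpbp8 (0.946) with Fgf2, Pde4b (0.981), Slc11a2 (0.973) and Mia3 (0.972) with Fgf6, and Bud13 (0.888), Ankle2 (0.886) and Bend3 (0.881) with Fgf7.

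Binding of Flag-tagged Myf6 near the 9 genes was read from the authors' list of 12898 peaks in myotubes, whose fold enrichment over local background is the authors' value, with a median of 7.68 and a maximum of 49.6. The list was called from 1 ChIP library, so it has no replicate check. A peak lay within 50 kb of 7 of the 9 genes, beside 46.4% of 21887 protein-coding genes, within 10 kb of the same number, beside 25.8%, and inside the gene span of 5, beside 17.3%. Fgf6 and Fgfbp1 had none within 50 kb.

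Fgfr1 (chr8:25518759-25575718) had 5 peaks inside its span. The highest in fold enrichment was at chr8:25525810-25526005 (17.2-fold), followed by chr8:25554779-25555033 (14.9-fold) and chr8:25546963-25547171 (11.9-fold). The other 2 were at 7.67-fold and 5.54-fold. The 17.2-fold peak ranked above 96.5% of all peaks in fold enrichment. In signal (pileup) the 14.9-fold peak was the higher of the 2, at 73.3 against 29.9. Fgfr4 (chr13:55152818-55168759) had no peak inside its span and 3 beyond its end, with summits 533, 2895 and 5742 bp away and enrichments of 9.65, 8.87 and 5.27-fold. Fgfrl1 (chr5:108694229-108706950) had 1 peak inside (5.56-fold) and 1 peak 2247 bp beyond it (8.50-fold).

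Among the ligands, Fgf21 (chr7:45613890-45615490), which was nearly without RNA in the muscle libraries, had a peak at chr7:45616308-45616650 whose summit was 1048 bp upstream of the gene. Its enrichment of 24.5-fold was above 99.4% of all peaks. The printed Fgf21 stretch ends short of this peak, and none of the 7 promoter windows overlapped a peak. A second peak, 19.5-fold, lay 24188 bp from Fgf21 and inside Mamstr. Its signal (pileup) was higher than that of the 24.5-fold peak, at 96.5 against 45.35. Fgf1 had 4 peaks inside its span, all of them also inside Arhgap26, at 7.41 to 13.5-fold. Fgf7 (chr2:126034658-126091185) had 3 inside, at 6.77, 7.74 and 9.18-fold, the first at chr2:126034728-126034854, and Fgf2 (chr3:37348477-37410106) had 1, at 7.69-fold. With a fold enrichment of at least 10, 3 genes had a peak within 50 kb, Fgf1, Fgf21 and Fgfr1, beside 19.8% of protein-coding genes. The peaks are from cultured myotubes and the RNA is from whole muscle, so the readouts were not made in the same cells.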

How the data were processed

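RNA was extracted with Trizol and libraries were made from total RNA with a TruSeq RNA v2 kit, per the labels' protocols, for 12 mouse muscle libraries. The submitters' processing notes list Bowtie 1.1.0, MACS2 2.1.0.20140616, HISAT2 2.1.0, SAMtools, featureCounts and DESeq2 and the builds mm10 and GRCm38.p5, with no role or order. The authors deposited RPM values per gene and library, per the file headers, and each library sums to 1000000. They also deposited a log2 fold change (WT over KO, by its sign), its standard error, and a p-value and q-value per gene, per the file headers. Multi-mapping, strand and annotation are not given in the sources used here. For ChIP-seq, the deposited peak list gives the signal (pileup), the fold enrichment ratio and the −log10 q-value and p-value for each peak, from MACS2 with a q cutoff of 0.05, per the file headers. Its build is taken as mm10 from the notes, and gene positions come from a RefSeq table of GRCm38.p6.

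Whole reads were recovered from the RPM values (100% within 0.1 read), at 1880087 to 49392472 per library. Differences were tested with limma 3.58.1 (R 4.3.3; lmFit, eBayes with a trend) on log2(RPM + 1), after a filter that kept genes at 1 RPM or more in 3 or more of the fitted libraries, two-sided, with Benjamini-Hochberg adjustment over all genes tested and a threshold of 0.05. KO and WT were compared on their own 6 libraries, and the injury comparisons and the interaction were fitted on all 12. Named pathway genes were those of smallest p, 2 per list and state. The alternatives were DESeq2 1.42.0 and edgeR 4.0.16 on the recovered reads, TMM scaling, non-mitochondrial scaling (to reads outside those genes), a pseudocount of 0.1, no filter, a replicate block, 1 fit of all 12 libraries and leaving out each library. List counts without injured KO replicate 2 were added after seeing the data. The genes, lists and tests were chosen with earlier results of these data known. Labels do not say how animals were sampled beyond their numbers, so p-values measure the spread between these libraries. The value of 1 transducer counted in its list is not reported here. Sequences of the peaks and of the Fgf1 and Fgfr1 promoters were not used here.

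Same-numbered libraries were read as the same animal, from the numbers in the column names. This reading was used for the injury changes by animal and for the alternative with the animal as a block. The correlations of their deviations from group means were 0.28, -0.23 and 0.02 in WT and 0.03, 0.51 and 0.64 in KO.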

Additional observations from a re-analysis of the deposited data

Results flagged for a closer look

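The 29 genes examined were the 9 FGF genes, the named pathway genes and Myf6. Of these, 2 moved in opposite directions in all WT and all KO animals after injury. Both had been named for a small KO against WT p, Map2k2 in uninjured and Fgf11 in injured muscle. The same libraries enter the injury change, so the movement is not separate from that choice. The share of all genes that moved in this way was not counted. Map2k2, a kinase that phosphorylates ERK, was higher in the injured muscle of every WT animal (0.25 to 0.39 on the log2(RPM + 1) scale) and lower in that of every KO animal (-0.66 to -0.05), so that the KO change minus the WT change was -0.65 (SE 0.29, limma unadjusted p 0.0421, adjusted p 0.999889). Fgf11, which acts inside the cell, was higher in every injured WT muscle (0.04 to 0.64) and lower in every injured KO muscle (-0.12 to -0.02), a difference of -0.30 (SE 0.48, limma unadjusted p 0.543, adjusted p 0.999889). Neither passed the test of the difference.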

How the results depend on the processing

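Of 42 results on Myf6 and the 8 tested genes, 25 kept their sign over all alternatives. Fgf1 in uninjured muscle turned to 0.18 with DESeq2, 0.18 with edgeR and 0.21 with TMM, and Fgf7 to 0.0846 with TMM and, in injured muscle, to 0.00979 with a pseudocount of 0.1. The injury change in WT turned for Fgf2 (DESeq2 -0.11, edgeR -0.0798, TMM -0.0136, non-mitochondrial scaling -0.0532), Fgf7 (DESeq2 -0.0242) and Fgfr1 (DESeq2 -0.0658, edgeR -0.0488, TMM -0.0289, non-mitochondrial scaling -0.0733). The interaction turned for Fgf7 (TMM -0.0834) and Fgfr4 (non-mitochondrial scaling 0.00642). The cause was not tested.

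Leaving out 1 library at a time, KO against WT in uninjured muscle ran from -0.17 to 0.23 for Fgf1, -0.87 to 0.0260 for Fgf6, -0.57 to 0.28 for Fgf7, -0.0931 to 0.93 for Fgfrl1, -1.40 to 0.0765 for Fgf13 and -0.88 to 0.0354 for Fgf9. In injured muscle it ran from -0.44 to 0.0550 for Fgf2 and -0.35 to 0.18 for Fgf7. The injury change in WT ran from -0.23 to 0.21 for Fgf2, -0.28 to 0.58 for Fgf7, -0.11 to 0.13 for Fgfr1 and -0.0513 to 0.45 for Fgfbp1, and in KO from -0.00745 to 0.65 for Fgf2 and -0.20 to 0.93 for Fgfrl1. The interaction ran from -0.0451 to 0.62 for Fgf2, -0.18 to 0.71 for Fgf6, -0.30 to 0.56 for Fgf7, -0.36 to 0.21 for Fgfr4 and -0.32 to 0.81 for Fgfrl1. These injury and interaction fits kept the other library of the same animal.

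Genes called in uninjured muscle numbered 35, and 663 with DESeq2 (341 higher in KO), 55 with edgeR, 107 with TMM (61 higher), 199 with non-mitochondrial scaling (31 higher), 20 with a pseudocount of 0.1, 1 without a filter, 167 in a fit of all 12 libraries and 3 to 84 with 1 library left out (5, 10 and 5 without WT replicates 1, 2 and 3, and 3, 32 and 84 without KO replicates 1, 2 and 3). TMM moved the median of all genes from -0.18 to 0.02 and non-mitochondrial scaling moved it to -0.32. In injured muscle 34 were called, and 427 with DESeq2, 19 without a filter, 56 in a fit of all 12 libraries and 0 to 2343 with 1 library left out, 2343 without KO replicate 2 and 0 without each other library, where 651 to 882 had an unadjusted p under 0.05. Of the 8 FGF genes, 1 was called with DESeq2 in each state, 1 with non-mitochondrial scaling in uninjured muscle and 0 to 4 with 1 injured library left out. The injury comparison in KO called 0 to 1 with 1 library left out, 1 without uninjured KO replicate 3. The lists of receptors, heparan sulfate enzymes, transducers and feedback genes went from 0 to 4, 2, 5 and 1 without injured KO replicate 2. A fold of at least 10 left 3 of 9 genes with a peak within 50 kb.

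With the replicate block, 752 genes were called in uninjured muscle, 181 higher in KO, with 1 FGF gene, Fgfr1, and 0 in injured muscle, where 644 had an unadjusted p under 0.05. KO and WT libraries of one number come from different animals, and their deviations correlated at 0.03, 0.26 and 0.38 in uninjured and at -0.47, -0.61 and -0.30 in injured muscle, so the numbers were not taken as pairs. With the animal as a block, no FGF gene changed its call in the injury comparisons. Depth limits Fgf21, Fgf7 and Fgfr4 in uninjured WT replicate 2, where 3 reads are 1.60 RPM. It also limits the separation of Fgfbp1 in uninjured muscle, which rested on 20 reads in that library.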
